A study of Melitaea cinxia with 174 samples.

Results

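Pdi (`MCINXTMP_005403`, a protein disulfide-isomerase) and SsRβ (`MCINXTMP_007562`, written SsRbeta where Greek letters are not used, the beta subunit of the translocon-associated protein complex) are 2 of the 16667 gene models of the Glanville fritillary butterfly, Melitaea cinxia. They were chosen by their identifiers, with earlier results of these data known. The study lists this pair of secretory pathway genes among its genes responding to flight in other butterflies. All values given here are from unflown individuals. Both genes were measured in the thorax of 174 individuals, 1 library each, from 4 populations: the Åland Islands (ÅL, 23 females and 26 males) and Uppland (UP, 11 females and 9 males), where habitat is fragmented, and Saaremaa (SA, 28 females and 35 males) and Öland (ÖL, 15 females and 27 males), where it is continuous. The larvae were wild-collected, 1 per family, and all of them overwintered and were reared singly on the same host plant under common garden conditions. The adults were kept in these conditions for 3 days before sampling, and no group received a treatment. No allele or construct separates the groups, so population and sex are the factors compared.

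Proteins that leave an animal cell, or that sit in its membranes, are threaded into the endoplasmic reticulum (ER) through the Sec61 channel while they are being made. The translocon-associated protein (TRAP) complex, of which SsRβ is a subunit, sits beside that channel and helps some proteins to enter, and protein disulfide-isomerases such as Pdi then form and rearrange disulfide bonds so that the new proteins fold. Many disulfide-bonded proteins of insect blood, among them the defensins, pass along this route, much of it in the fat body, some of which lies in the thorax beside the flight muscle.

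The libraries were made from the polyA end of transcripts, so a count is a tag near that end and does not grow with the length of the gene. Total counts per individual ranged from 442717 to 7742394 with a median of 2677838. Levels are given as normalized counts, which are the counts of each individual rescaled by its library size and composition. Comparisons of landscapes and populations used the balanced set of the study, for which the 15 most deeply sequenced butterflies of every population were taken (60 in all), and comparisons of the sexes used all 174. In 4 individuals most of 50 sex-biased genes lay on the side of the other sex, and leaving them out did not change the call for either gene between the sexes. The 4 muscle genes examined (2 troponin C genes, kettin and a myosin heavy chain) had a summed normalized count of 1212.7 to 5731.5, so every library carried the muscle transcripts that a thorax should have. In whole thorax, more cells of a kind and more RNA in each cell cannot be told apart.

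Both genes were detected in every individual. Pdi had a mean normalized count of 58.0, rank 1431 of the 16667 gene models, and SsRβ had 36.4, rank 1997, so that they were above 91.4% and 88.0% of the models. Over the 174 individuals the normalized count of Pdi was 4.5 at the lowest, 51.7 at the median and 194.0 at the highest, from 8 to 1021 counts. That of SsRβ was 11.2 at the lowest, 33.6 at the median and 127.8 at the highest, from 11 to 584 counts. Pdi thus covered a wider range than SsRβ. Once population and sex were accounted for, the biological coefficient of variation among individuals was 0.48 for Pdi, above that of 83.9% of 739 genes of similar level, whose median was 0.35. For SsRβ it was 0.32, above that of 36.1% of 873 genes of similar level, whose median was 0.36.

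The populations ordered differently for the 2 genes. For Pdi the normalized count in ÅL was 4.5 at the lowest, 43.2 at the median and 148.9 at the highest. The same values were 16.3, 53.6 and 154.5 for SA, 17.7, 53.7 and 131.3 for ÖL, and 22.4, 71.8 and 194.0 for UP. ÅL therefore had the lowest median and UP the highest, with wide overlap, and 15 of 49 individuals of ÅL exceeded the median of all individuals against 35 of 63 in SA, 23 of 42 in ÖL and 14 of 20 in UP. For SsRβ the values were 12.2, 30.6 and 54.2 in ÖL and 14.7, 32.3 and 61.9 in SA. They were 18.7, 36.7 and 65.4 in UP and 11.2, 40.2 and 127.8 in ÅL. Here ÅL was at the upper end, again with overlap, and 33 of 49 individuals of ÅL and 14 of 20 of UP exceeded the median of all individuals against 26 of 63 in SA and 14 of 42 in ÖL. The plot of individuals shows both orders.

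**Figure D1:**
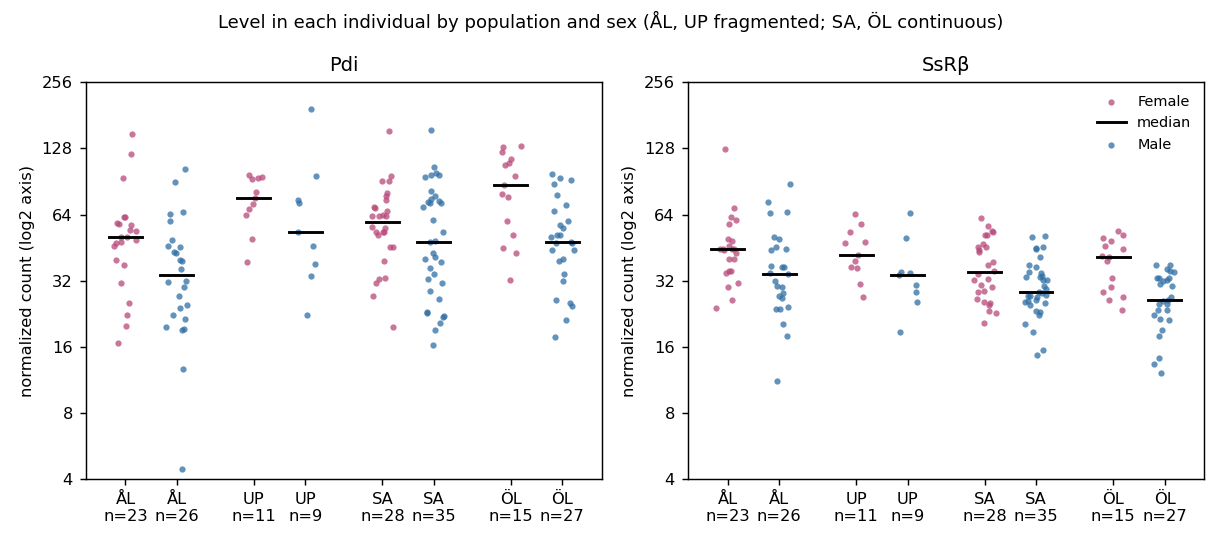
Normalized count (log2 axis) of Pdi and SsRβ in each of the 174 individuals by population and sex, with the median of each group as a black line and n under each group. The male of ÅL at 4.5 is the lowest point for Pdi, the female of ÅL at 127.8 the highest for SsRβ, and in each population the female median lies above the male one for both genes.

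SsRβ was higher in the 2 fragmented than in the 2 continuous populations, and for Pdi no difference was detected. The SE and FDR of this contrast rest on the spread between individuals, so landscape and population cannot be told apart. The study also names the recent shared ancestry of ÅL and UP as a confounding factor. In the balanced set SsRβ had a normalized count of 23.9 at the lowest, 44.5 at the median and 127.8 at the highest in ÅL, and 18.7, 34.6 and 65.4 in UP. In SA it had 14.7, 30.6 and 57.1, and in ÖL 19.2, 30.3 and 48.4. The medians of both fragmented populations lay above those of both continuous populations, while the ranges overlapped. The log2 fold change of fragmented against continuous was 0.48 (SE 0.14, 1.4-fold, 95% interval 0.21 to 0.75, edgeR FDR = 0.00702). The SD between individuals within a population was 0.34 to 0.64 on the log2 scale, so single individuals of the landscapes were not separated. Of the 8225 genes tested in this contrast, 25.7% passed FDR<0.05, 1213 of them higher and 901 lower, so a call by itself did not set SsRβ apart. The direction was kept when each of the 60 individuals was left out in turn, with log2 fold changes from 0.39 to 0.52 and the highest FDR at 0.017. The 0.39 was reached without the female of ÅL with the highest SsRβ, which also had the highest summed antimicrobial peptide level of all individuals, and the part of that level in the result was not tested. Genes of the fat body and of muscle moved with the same contrast. The summed hexamerins of the balanced set had a median of 16.6 and a highest value of 1170.5 in ÅL, and 2.1 and 1468.1 in UP. They had 1.3 and 12.8 in SA and 1.5 and 23.2 in ÖL, so the median of UP lay near those of the continuous populations. The 1 hexamerin tested was higher in fragmented landscapes by 6.06. The study had named the hexamerins summed here as higher in fragmented landscapes on these samples, so their direction is not independent evidence. Of the 4 muscle genes the 2 troponin C genes were higher (0.71 and 0.57) and kettin (-0.54) and myosin heavy chain (-0.76) lower, and the part of these genes in the difference of SsRβ was not tested.

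For Pdi the normalized count in the balanced set was 4.5 at the lowest, 43.2 at the median and 148.9 at the highest in ÅL, and 22.4, 68.0 and 194.0 in UP. In SA it was 19.2, 55.7 and 152.9, and in ÖL 32.1, 55.5 and 123.3. The 2 fragmented populations thus held the lowest and the highest median. The log2 fold change of the landscape contrast was -0.04 (SE 0.20, 95% interval -0.43 to 0.35, edgeR FDR = 0.904), so differences within that interval were not excluded.

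The balanced set of ÖL held 4 females and 11 males, and both genes differed between the sexes. With sex as a covariate the landscape difference was 0.45 for SsRβ (edgeR FDR = 0.0106) and -0.11 for Pdi (edgeR FDR = 0.707). Among the less deeply sequenced butterflies left out of that set, SsRβ had a difference of 0.34 that did not pass (edgeR FDR = 0.0674), and with all 174 individuals it was 0.34 and passed (edgeR FDR = 0.000658). Without ÅL the difference between UP and the continuous populations was 0.33 and did not pass (edgeR FDR = 0.116), and the call was also lost without SA (0.52, edgeR FDR = 0.0544) or ÖL (0.46, edgeR FDR = 0.0547). Without UP the difference between ÅL and the continuous populations was 0.63 and passed (edgeR FDR = 0.00328).

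Among the 6 population pairs, SsRβ passed the threshold in 2, both of them with ÅL as the higher population. The log2 difference of ÅL against SA was 0.61 (SE 0.20, edgeR FDR = 0.0126), where 34.2% of genes passed, and that of ÅL against ÖL was 0.67 (SE 0.20, edgeR FDR = 0.0104), where 21.6% passed. Without the female of ÅL with the highest level, these differences were 0.42 (edgeR FDR = 0.0613) and 0.48 (edgeR FDR = 0.0475). The call against SA was therefore lost with a single individual. UP lay between ÅL and the continuous populations. ÅL exceeded UP by 0.31 (edgeR FDR = 0.289, 17% of genes passing), and UP exceeded SA by 0.30 (edgeR FDR = 0.281, 23.1% passing) and ÖL by 0.36 (edgeR FDR = 0.359, 3.1% passing), none of which passed. SA and ÖL differed by 0.06 (95% interval -0.32 to 0.44, edgeR FDR = 0.873), where 17% of genes passed.

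Pdi passed in none of the 6 pairs of the balanced set by edgeR, where its smallest unadjusted p was 0.0682, or by DESeq2. Its differences were -0.52 for ÅL against UP (SE 0.28, edgeR FDR = 0.202), -0.19 against SA and -0.41 against ÖL, and the other 3 ranged from -0.22 for SA against ÖL to 0.33 for UP against SA. The pairs with ÅL moved past the threshold with all 174 individuals, where Pdi was lower in ÅL than in UP by -0.60 (edgeR FDR = 0.0203), than in SA by -0.33 (edgeR FDR = 0.0427) and than in ÖL by -0.46 (edgeR FDR = 0.0165). With a mean for each population and sex these were -0.62, -0.36 and -0.53. Without the male of ÅL with 8 counts of Pdi, the difference to SA over all other individuals was -0.30 and no longer passed (edgeR FDR = 0.0564), while those to UP (-0.57) and ÖL (-0.43) did.

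**Figure D2:**
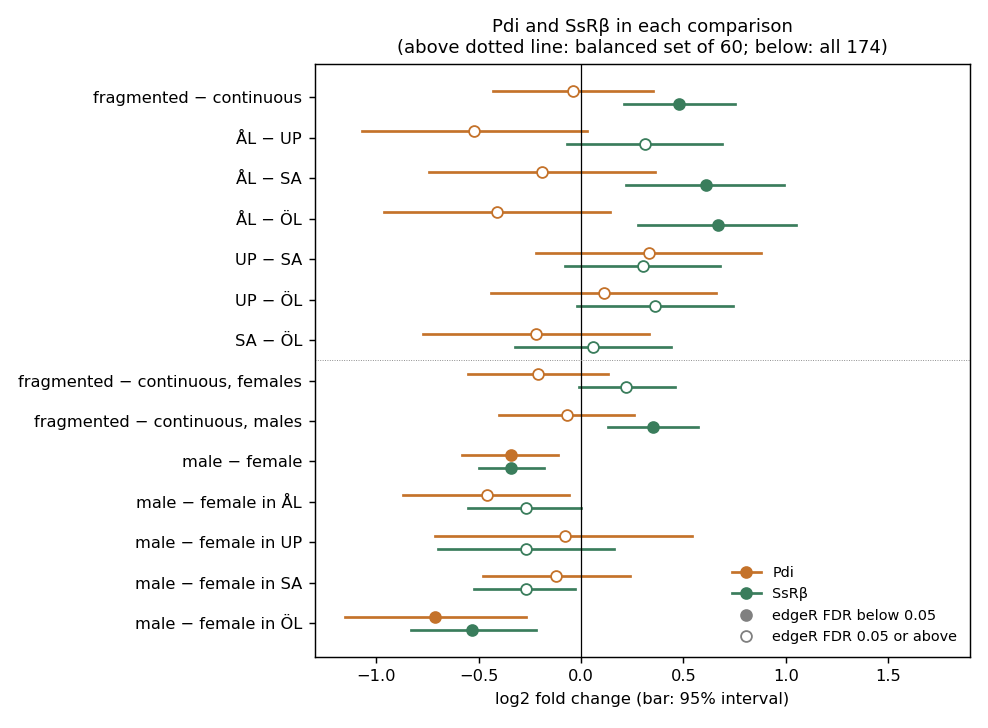
Log2 fold change of Pdi and SsRβ in each comparison with its 95% interval (bars), filled where the edgeR FDR is below 0.05. In the 3 pairs with ÅL the SsRβ points lie to the right of 0 and the Pdi points to the left, whereas in the comparisons of males with females both genes lie to the left.

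Since the 2 genes were measured in the same libraries, their ratio within an individual does not depend on the normalization. The ratio was examined because of the orders above, and after they had been seen. Pdi over SsRβ was 0.19 at the lowest, 1.07 at the median and 2.5 at the highest in ÅL. It was 0.73, 1.61 and 3.5 in UP, 0.59, 1.65 and 5.98 in SA, and 0.65, 2.01 and 5.04 in ÖL. Pdi exceeded SsRβ in 29 of 49 individuals of ÅL (59.2%) but in 19 of 20 of UP, 53 of 63 of SA and 39 of 42 of ÖL, so ÅL had the low ratios, and the 4 populations still overlapped.

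In the balanced set the mean log2 ratio of ÅL was -0.11 ± 0.94 (SD, n = 15 in each population), against 0.78 ± 0.60 for UP, 0.68 ± 0.67 for SA and 1.06 ± 0.57 for ÖL. The ratio was lower in ÅL than in UP by -0.89 on the log2 scale (two-sided permutation test, adjusted p = 0.0101 over 8 comparisons), than in SA by -0.79 (permutation, adjusted p = 0.0207) and than in ÖL by -1.17 (permutation, adjusted p = 0.00024). UP, SA and ÖL were not separated from each other, with differences of 0.10 for UP against SA (permutation, adjusted p = 0.659), -0.28 for UP against ÖL (permutation, adjusted p = 0.268) and -0.38 for SA against ÖL (permutation, adjusted p = 0.164). The contrast of fragmented against continuous populations gave -0.53 (permutation, adjusted p = 0.0207), but the mean of UP lay between those of SA and ÖL. Low ratios in ÅL alone can give such a contrast and p-value. A difference in the ratio shared by ÅL and UP was therefore not shown. Among the butterflies not in the balanced set, the ratio was also lower in ÅL than in SA by -0.60 (unadjusted permutation p = 0.00019) and than in ÖL by -0.81 (unadjusted permutation p = 6e-05). These butterflies were part of the orders that had prompted the ratio, so these values are not an independent test. ÅL was not compared with UP there. Without the male of ÅL with the lowest ratio, the differences in the balanced set were -0.73, -0.63 and -1.01. No difference in the ratio was detected between males and females (-0.09, permutation, adjusted p = 0.459).

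**Figure D3:**
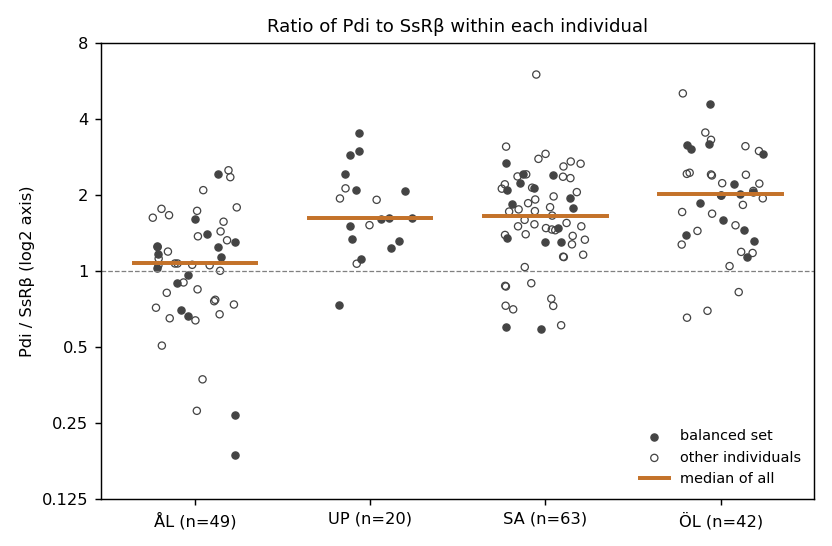
Ratio of the normalized count of Pdi to that of SsRβ in each individual (log2 axis) by population, filled for the balanced set and open for the other individuals, with the median of all individuals of a population as a line. The median of ÅL (1.07) is close to a ratio of 1 and those of UP (1.61), SA (1.65) and ÖL (2.01) are above it.

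Both genes were lower in males than in females. The normalized count of Pdi was 16.7 at the lowest, 59.6 at the median and 152.9 at the highest in 77 females, and 4.5, 44.4 and 194.0 in 97 males. That of SsRβ was 20.6, 40.9 and 127.8 in females and 11.2, 30.3 and 87.9 in males. Most males lay below the median of all individuals, which 38 of 97 males exceeded for Pdi and 35 of 97 for SsRβ, against 49 and 52 of 77 females. Males minus females, with the 4 populations weighted equally, gave a log2 difference of -0.34 for Pdi (SE 0.12, 95% interval -0.58 to -0.11, edgeR FDR = 0.0261) and of -0.34 for SsRβ (SE 0.08, 95% interval -0.50 to -0.18, edgeR FDR = 0.000771). Of the 8976 genes tested between the sexes 22.7% passed, 1057 higher and 980 lower in males. In the balanced set alone the differences were -0.46 and -0.33 and did not pass (edgeR FDR = 0.15 and 0.147). The summed level of 4 hexamerins, storage proteins made by the fat body, ran from 0.0 over a median of 2.2 to 1468.1 in females and from 0.0 over 1.3 to 280.0 in males, 3 of the 4 were lower in males, and their part in the difference was not tested.

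The sign was negative for both genes in every population, and the test was passed in ÖL. There Pdi ran from 32.1 to 131.3 in females and from 17.7 to 98.4 in males, and 11 of 15 females but 12 of 27 males exceeded the median of all individuals. SsRβ had a lowest value of 23.5, a median of 40.9 and a highest of 54.2 in females, and 12.2, 26.3 and 37.7 in males. For both genes the ranges of the sexes overlapped, and the highest females lay above all males. The log2 differences were -0.71 for Pdi (SE 0.23, edgeR FDR = 0.0287) and -0.53 for SsRβ (SE 0.16, edgeR FDR = 0.0158), where 9.2% of genes passed. In ÅL they were -0.46 for Pdi (edgeR FDR = 0.126) and -0.27 for SsRβ (edgeR FDR = 0.198), with 13.2% of genes passing. In SA they were -0.12 (edgeR FDR = 0.78) and -0.27 (edgeR FDR = 0.16), with 11% passing, and in UP, the smallest population sample, -0.08 (edgeR FDR = 0.988) and -0.27 (edgeR FDR = 0.861), with 0.813% passing. A test of whether the sex difference varied among the populations, added after these values were seen, did not pass for Pdi (edgeR FDR = 0.667) or SsRβ (edgeR FDR = 0.886), so a sex difference particular to ÖL was not shown.

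Within each sex the landscape difference of SsRβ pointed the same way. In females it was 0.22 (SE 0.12, edgeR FDR = 0.162), where 22.3% of genes passed, and in males 0.35 (SE 0.11, edgeR FDR = 0.0134), where 23.6% passed. In the balanced set the value for males was 0.36 and did not pass (edgeR FDR = 0.194). Those of Pdi were -0.21 in females (edgeR FDR = 0.419) and -0.07 in males (edgeR FDR = 0.804). The landscape difference in males minus that in females was 0.13 for SsRβ (SE 0.16, edgeR FDR = 0.879) and 0.14 for Pdi (SE 0.24, edgeR FDR = 0.914), in a test that 0.357% of all genes passed. Both values changed sign in the balanced set (-0.13 and -0.36). A difference between the sexes in the landscape contrast was thus not shown for either gene.

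Individuals with more SsRβ than others of their population and sex also had more Pdi. After the mean of each population and sex was removed from log2 CPM (tags scaled to a common library total), Pearson's r between the genes was 0.45 and Spearman's rho 0.44 over 174 individuals (permutation within population and sex, p = 1e-05, the smallest that 100000 permutations can give, adjusted p = 7e-05 over 7 relations). Without the 2 individuals farthest from the median of SsRβ, r was 0.42. It was positive in all 8 groups of population and sex, from 0.27 in females of UP to 0.71 in males of UP. Among all genes tested, SsRβ was 114th in likeness to Pdi and Pdi was 15th in likeness to SsRβ, so that neither was the nearest gene of the other. Both values come from the same libraries, and r with the composition factor of the library (TMM) was 0.31 for Pdi and 0.07 for SsRβ.

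**Figure D4:**
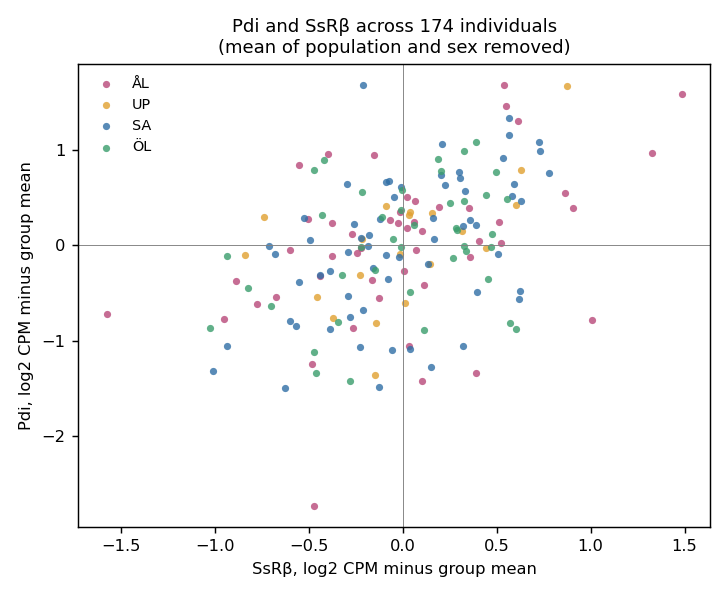
Log2 CPM of Pdi against that of SsRβ in 174 individuals after removal of the mean of each population and sex, coloured by population. The points rise together (r = 0.45) with wide scatter, and the lowest point for Pdi is the male of ÅL with 8 counts.

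The genes most like SsRβ across individuals included other parts of the translocon. Over 174 individuals and 8975 other genes, the gene with the highest r to SsRβ was the Sec61 beta subunit (`MCINXTMP_011562`, a part of the channel itself), with r = 0.65. The TRAP delta subunit (`MCINXTMP_015076`) was 4th with r = 0.57. The other 3 of the nearest 5, `MCINXTMP_012939`, `MCINXTMP_002819` and `MCINXTMP_013260` (r = 0.58, 0.58 and 0.57), carry no name in the sources used here. Hsc70 (`MCINXTMP_016461`), also named glucose-regulated protein 78, the Hsp70 chaperone of the ER, was 8th with r = 0.51, the TRAP alpha subunit (`MCINXTMP_009508`) 11th with r = 0.48 and the TRAP gamma subunit (`MCINXTMP_012678`) 24th with r = 0.42. The median r of SsRβ with the 3 TRAP partners was 0.48, against -0.02 with all genes tested, of which 8 exceeded 0.5. The same female of ÅL had the highest level of SsRβ and of each of these named genes. Their r values were not recomputed without that female, so its part in them was not tested.

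Pdi did not have the same neighbours. Its nearest 5 genes, `MCINXTMP_001610`, `MCINXTMP_014619`, `MCINXTMP_011886`, `MCINXTMP_000822` and `MCINXTMP_005221`, had r from 0.62 to 0.67 and carry no name in the sources used here. Its r was 0.29 with the Sec61 beta subunit, 0.21 with Hsc70, 0.30 with TRAP gamma, 0.26 with TRAP delta and -0.06 with TRAP alpha. The median over the 3 TRAP partners was 0.26, against 0.01 with all genes tested, of which 58 exceeded 0.5. Among 18 tested secretory genes that the study lists for landscape differences, the median r was 0.14 with Pdi and 0.32 with SsRβ. The highest of them for Pdi was vesicle-associated membrane protein 7, which acts in vesicle fusion (`MCINXTMP_011277`, r = 0.58, 13th of all genes), whose r with SsRβ was 0.12.

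Several other genes of the translocon and ER were higher in fragmented landscapes, as SsRβ was, and most clearly in ÅL. Of the 3 genes of this kind that share the flight list with the members, the Sec61 beta subunit was higher in fragmented landscapes by 0.63 (SE 0.13, edgeR FDR = 0.000299) and Hsc70 by 1.05 (SE 0.20, edgeR FDR = 0.000103), while TRAP alpha had 0.40 (SE 0.16, edgeR FDR = 0.0634) and did not pass. TRAP gamma was higher by 0.59 (SE 0.13, edgeR FDR = 0.000456) and TRAP delta by 0.74 (SE 0.15, edgeR FDR = 0.000263), so SsRβ, gamma and delta passed and alpha did not. All 5 of these genes were higher in ÅL than in SA and in ÖL and passed, where 1657 and 1059 of the 8225 genes tested were higher. These differences were not recomputed without the female of ÅL with the highest SsRβ. For UP against SA, TRAP delta passed (0.60, edgeR FDR = 0.0373) and the other 4 did not, among them TRAP alpha with -0.50 (edgeR FDR = 0.113). For UP against ÖL the largest value was that of Hsc70 (0.75, edgeR FDR = 0.148), which did not pass. In females the 3 TRAP partners had 0.07 to 0.26 and did not pass. Of the 19 secretory genes listed by the study for landscape differences, 18 were tested, of which 16 were higher and 2 lower with a median of 0.58, against a median of 0.03 over all genes and 25.7% of them passing. These 19, TRAP gamma, TRAP delta, Sec61 beta and Hsc70 among them, were chosen by the study on these samples, so the counts are not independent evidence of their direction. The largest were ribophorin II (1.72) and dolichol-phosphate mannosyltransferase (1.19), both of the pathway that attaches sugars to new proteins, followed by Hsc70. The 2 lower were USO1 (-0.57), a tether of vesicles, and procollagen-lysine 5-dioxygenase (-0.52), an ER enzyme that modifies collagen. The landscape value of Pdi lay between those 2 and the remaining genes.

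**Figure D5:**
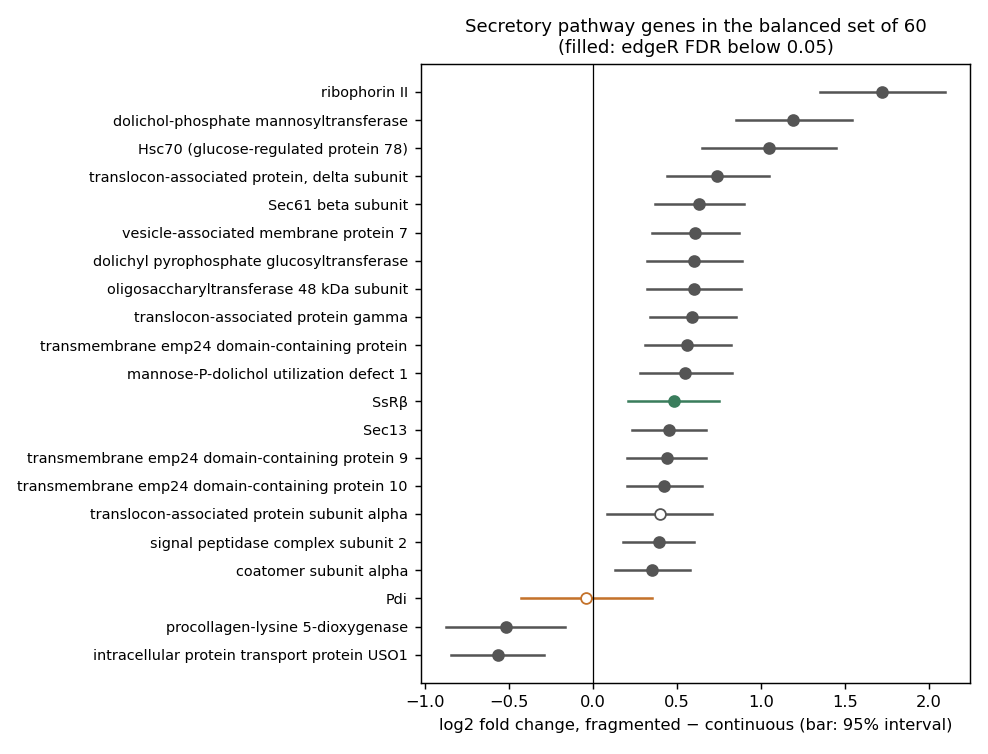
Log2 fold change of fragmented against continuous landscapes in the balanced set with its 95% interval for Pdi, SsRβ and the tested secretory genes, filled where the edgeR FDR is below 0.05. SsRβ (0.48) lies among the genes that were higher in fragmented landscapes, Pdi (-0.04) has an interval across 0, and USO1 and procollagen-lysine 5-dioxygenase are at the lower end.

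Between the sexes, genes of the secretory list that passed were lower in males, as both members were. Of the 18 tested secretory genes 8 were lower in males, where 980 of all 8976 genes tested were, the median was -0.20 against 0.00 over all genes, and the only positive value was that of procollagen-lysine 5-dioxygenase (0.01). The largest decreases were those of dolichol-phosphate mannosyltransferase (-0.58), of transmembrane emp24 domain-containing protein 9, a cargo receptor of vesicles (-0.42), and of ribophorin II (-0.36). TRAP delta was lower by -0.26 (edgeR FDR = 0.0212) and Hsc70 by -0.30 (edgeR FDR = 0.0332), and TRAP alpha (-0.17), TRAP gamma (-0.09) and Sec61 beta (-0.16) did not pass. With RLE size factors in place of TMM, 5 of the 18 were lower and the median was -0.18.

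Secreted antimicrobial peptides varied far more than the members. The summed normalized count of 8 such genes, 1 of which had a median of 0, ran from 18.1 over a median of 61.9 to 15050.0 in ÅL and from 11.3 over 38.3 to 1504.2 in UP. It ran from 5.4 over 21.3 to 998.4 in SA and from 6.3 over 40.8 to 743.4 in ÖL. Of the 6 peptides tested 6 were higher in fragmented landscapes, where 1213 of all 8225 genes were, with a median of 2.88. The study had already named antimicrobial peptide genes as higher in fragmented landscapes on these samples, so this count is not independent evidence of their direction. All 6 were higher in ÅL than in SA and ÖL (medians 4.74 and 5.14), where 1657 and 1059 of the 8225 genes were. The medians for UP against SA and ÖL were 1.04 and 0.86, and no peptide passed there by edgeR (at an unadjusted p under 0.05, 1 against SA and 2 against ÖL, with the other tools not run for this list). Across individuals, with population and sex removed, r with the summed peptides was 0.32 for SsRβ (rho 0.31, permutation adjusted p = 0.00028) and 0.30 for Pdi (rho 0.19, permutation adjusted p = 0.000327). Without the 2 individuals farthest from the median peptide level, these were 0.22 and 0.25. Within groups, r with SsRβ was 0.39 to 0.70 in the 4 groups of ÅL and ÖL and -0.08 to 0.12 in the 4 of SA and UP, a difference that was not tested, and r with Pdi was -0.04 to 0.44.

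The other relations were weaker. With the summed hexamerins, which were at 0 in some individuals, r was 0.11 for Pdi (permutation adjusted p = 0.197) and -0.08 for SsRβ (permutation adjusted p = 0.415). With the log2 total count, r was -0.06 for Pdi (permutation adjusted p = 0.461) and -0.15 for SsRβ (permutation adjusted p = 0.0986, and 0.0314 for its rho of -0.18).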

How the data were processed

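Thorax RNA of 174 individuals was sequenced from strand-specific libraries anchored at the polyA tail, read at 2 centres. The labels give no batch, so this was not tested. The authors quality-trimmed the reads, aligned them to the genomic scaffolds (the submitters' processing notes name CASAVA 1.7, TopHat2 2.0.5 and edgeR) and counted them in 16667 gene models. The deposited counts are whole numbers without normalization. The deposited normalized counts are signal values, which the authors rescaled from the counts by library size and a TMM factor, and they are a constant multiple of an individual's counts within a relative deviation of 0.00029.

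Counts were tested in R 4.3.3 by edgeR 4.0.16 (quasi-likelihood F-test, TMM, filterByExpr with a minimum count of 10, Benjamini-Hochberg FDR over all genes tested, threshold 0.05), with 1 mean per population in the balanced set and 8 means for sex. Relations used log2 CPM (TMM, prior count 1) and 100000 permutations in Python 3.11.15 (numpy 2.4.6, pandas 2.3.3, scipy 1.17.1, matplotlib 3.10.9). Ratios used counts with 0.5 added. The smallest chi-square per degree of freedom between 2 individuals of a group was 8.7 over 2098 pairs, so none was taken for a duplicate.

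Alternatives were RLE factors, DESeq2 1.42.0, limma-voom (limma 3.58.1), the likelihood ratio test, no filter, covariates and other sets of individuals. The 8-mean fit of populations, single individuals left out, the test of sex by population and the ratio were added after seeing the data. The members and lists were chosen with earlier results of these data known. Genes were named by a rule: the members, the translocon and flight-list genes, the 3 largest changes of the secretory list in each direction, and the 5 genes with the highest r. That list was read from a shortened table. Individuals the study set aside could not be told from the labels and were kept. The steps were tested on simulated data.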

Additional observations from a re-analysis of the deposited data

Results flagged for a closer look

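The normalized count of Pdi was 194.0 in 1 male of UP, while the next of the 9 males of that group was 96.1. This gap is 0.57 of the range of the group, beyond the critical value of 0.493 for 9 samples. Chance passes that limit in about 1 in 20 groups if values are normally distributed. The check used normalized counts without a log and was not made on the log2 scale. There this male had a log2 CPM of 7.518, the next 6.636 and the lowest 4.486, a less marked gap. In that male SsRβ was the highest of the group as well, at 65.4 against 50.3 in the next male, a gap of 0.32 of the range that stayed within the limit. The library had a total count of 4666983, with 1021 counts of Pdi and 344 of SsRβ. UP males were the only group small enough for this check.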

How the results depend on the processing

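The landscape difference of SsRβ kept its sign in every alternative. It no longer passed outside the balanced set (0.34), where libraries were more numerous but shallower and the cause was not tested. It also did not pass in females (0.51) or males (0.39) of that set, or without ÅL (0.33), SA (0.52) or ÖL (0.46), settings with fewer individuals. Without UP, also with fewer individuals, it was 0.63 and passed (edgeR FDR = 0.00328). Its FDR over the alternatives ranged from 0.000658 to 0.16. The sign of Pdi in the landscape contrast, which was never called, turned in females of the balanced set (0.10), without ÅL (0.22), without ÖL (0.07) and within the leave-one-out range of -0.15 to 0.05. Likewise, in the balanced set the landscape difference of Pdi in females was 0.09, and the landscape-by-sex values were -0.36 for Pdi and -0.13 for SsRβ. Pdi in the pairs with ÅL passed with all 174 individuals for UP (-0.60), SA (-0.33) and ÖL (-0.46), and with a mean for each population and sex (-0.62, -0.36 and -0.53). In the balanced set, leaving out the male of ÅL with the lowest Pdi or the female of ÅL with the highest SsRβ gave -0.74 to -0.44 for UP, -0.42 to -0.11 for SA and -0.64 to -0.33 for ÖL, and 0.42 to 0.65 for SsRβ in ÅL against SA. With all individuals but that female, the last value was 0.28 and still passed. In the balanced set, the sex differences were -0.46 for Pdi and -0.33 for SsRβ, neither passing, the landscape difference of SsRβ in males was 0.36, not passing, and 779 genes passed between the sexes against 2037. The count of 2114 genes between landscapes became 3190 with all individuals, 3493 with 8 means, 1024 outside the balanced set, 562 in females, 1021 in males, 1234 without ÅL and 617 without SA. The relation of SsRβ with the peptides was 0.40 in the deeper individuals and 0.22 without 2 individuals, and that of Pdi with total count turned to 0.01 in the deeper individuals. The other 207 fold changes and the 11 ratios kept their side of the threshold, the ratios by unadjusted permutation p. They also kept their direction, except that Pdi between landscapes was 0.003 without the male of ÅL with the lowest Pdi. The other 23 relations kept their direction and moved by less than their SE, and no p was computed for them. The cause of a change was not tested in any setting. No paired analysis was made, since each library came from a different individual and the design holds no pairs. Counts of 8 to 1021 for Pdi and 11 to 584 for SsRβ limit the precision of single individuals.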
